A study of Mus musculus with 143 samples.

Results

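The genes described here are the calcium release channels of the endoplasmic reticulum and the calcium pumps, 10 of the 41128 mouse genes measured. They were chosen by name, with earlier results of these data known. They are the ryanodine receptors Ryr1, Ryr2 and Ryr3, the inositol trisphosphate (IP3) receptors Itpr1, Itpr2 and Itpr3, the reticulum pump Atp2a2, and the plasma membrane pumps Atp2b1, Atp2b2 and Atp2b4. All 10 passed the filter on low counts in each of the 3 treatment strategies. RNA of the whole striatum was sequenced from zQ175 knock-in mice, which carry an expanded CAG repeat in their own Htt gene and are used as a model of Huntington's disease, and from wild-type mice. Mice of each genotype received a small interfering RNA (siRNA) against Htt named HTT-10150, or the non-targeting siRNA NTC, or no treatment. In strategy 2[4]6 the siRNA was given at 2 months and the striatum collected at 6 months of age, in 6[4]10 it was given at 6 months and collected at 10, and in 2+6[8]10 it was given at both 2 and 6 months and collected at 10. Untreated mice of each strategy were of the age of its treated mice. There were 18 groups of 8 animals, 4 of each sex, but the group of HTT-10150 wild-type mice in 2+6[8]10 had 7 (2 females and 5 males). The labels do not state the number of mutant alleles, the strain background, or the dose and route of the siRNA. Strategies differ in age, in the number of treatments and in the animals used, and these cannot be told apart.

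Calcium leaves the endoplasmic reticulum through ryanodine receptors, which open when cytosolic calcium rises, and through IP3 receptors, which open when phospholipase C makes IP3 downstream of receptors such as the group I metabotropic glutamate receptors. SERCA pumps, of which Atp2a2 encodes the main form in brain, return calcium to the reticulum, and PMCA pumps, encoded by the Atp2b genes, carry it out across the plasma membrane. Medium spiny neurons, the projection neurons that make up most neurons of the striatum, are known for their high content of IP3 receptor type 1. Ryr1 is best known as the release channel of skeletal muscle, Ryr2 as that of heart, and all 3 ryanodine receptors are expressed in brain.

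Libraries held 12.55 M to 29.19 M counts, with a median of 18.85 M. Of 15 markers of medium spiny neurons, 14 were called lower in untreated zQ175 than in untreated wild type in each strategy and 0 higher. The summed level of these markers over the 3 strategies ran from 6508 to 8325 CPM (counts in each 1000000) in untreated zQ175 and from 10465 to 14610 CPM in untreated wild type. Some markers of glia and vessels were called lower too. Astrocyte markers summed to 2450 to 3135 CPM in untreated zQ175 and 3203 to 3953 CPM in untreated wild type, which did not overlap. Of 8 oligodendrocyte markers 4, 4 and 4 were called lower in untreated zQ175 of 2[4]6, 6[4]10 and 2+6[8]10 and 1, 0 and 0 higher, with sums of 3767 to 6678 CPM in zQ175 and 5467 to 7633 CPM in wild type. Of 8 endothelial markers 7, 7 and 4 were called lower and 0 higher, with sums of 178.6 to 245.1 CPM in zQ175 and 215.4 to 298.6 CPM in wild type. In whole tissue, fewer cells of a type and less RNA per cell cannot be told apart, and the part that the marker levels have in the results below was not tested. Of 6 skeletal muscle markers 1, Acta1, passed the filter. The summed level of the 6 was 2.55 to 20.7 CPM in zQ175 and 3.20 to 6.72 CPM in wild type, and Ckm was at 0 in 68 of 143 libraries. In 32 libraries the sum of a marker list for choroid plexus, thalamus, cortex or skeletal muscle lay over 3 scaled median absolute deviations above the median, and each result was also computed without them. Htt averaged 107.3 ± 11.7 CPM with HTT-10150 and 137 ± 5.03 CPM with NTC in zQ175 of 2+6[8]10 (SD, n = 8 each; log2 fold change -0.36 ± 0.06 SE, edgeR adjusted p = 0.000346), and was called lower in wild type of that strategy too. It was not called in either genotype of 2[4]6 or 6[4]10. In 2[4]6 it averaged 127 CPM with HTT-10150 and 128 CPM with NTC in zQ175 (-0.01, edgeR adjusted p = 0.993), and 128.9 and 153.8 CPM in wild type, where the groups did not overlap (-0.26, adjusted p = 0.0567). Htt of 6[4]10 averaged 104.3 and 129.7 CPM in zQ175 (-0.32, adjusted p = 0.602) and 123.5 and 156.5 CPM in wild type (-0.34, adjusted p = 0.820), and the groups overlapped.

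Most of the release channels and pumps were lower in zQ175 than in wild type. Without treatment, 7 of the 10 genes in 2[4]6, 9 in 6[4]10 and 8 in 2+6[8]10 were called lower at an adjusted p under 0.05, and 0 were called higher. Over all genes tested, 32.6%, 36.1% and 35.4% were called in these 3 comparisons. Of all genes, 17.2% were called lower in 2[4]6, 17% in 6[4]10 and 18.3% in 2+6[8]10, and 15.3%, 19.2% and 17.1% were called higher. The median log2 fold change of the 10 genes was -0.39, -0.42 and -0.37, against medians of 0.0035, 0.011 and 0.0031 over all genes. Because the 10 genes were chosen with earlier results of these data known, the contrasts with all genes describe them and test nothing. Among mice given NTC, 8, 6 and 8 of the 10 genes were called, where 34.4%, 32.8% and 42.1% of all genes were. Among mice given HTT-10150, 7, 6 and 9 of the 10 were called, where 33.5%, 34.7% and 36.2% of all genes were. Over these 9 comparisons of zQ175 with wild type, which use separate animals but share an estimate of the spread within a strategy, 66 of 90 values were called lower, 2 were called higher and 22 were not called. Ryr1, Itpr1, Atp2a2, Atp2b1 and Atp2b2 were called lower in all 9, and the 2 higher calls were both of Atp2b4.

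**Figure D1:**
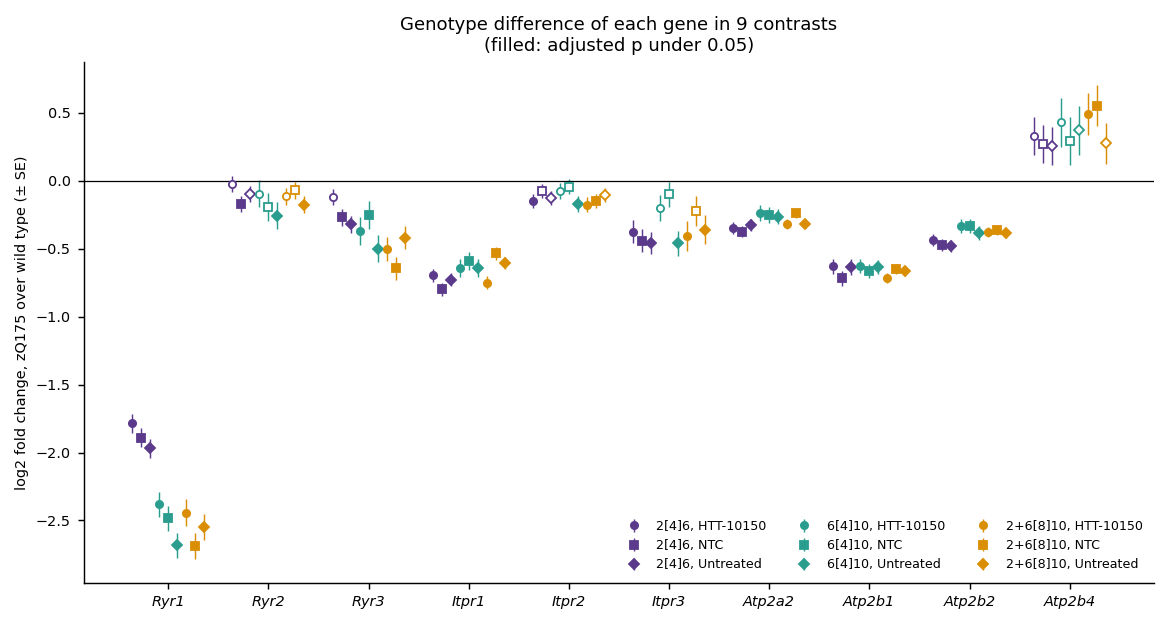
Log2 fold change of each gene in zQ175 over wild type (vertical axis) with its SE, for HTT-10150, NTC and untreated mice of each strategy (color); filled points passed an adjusted p under 0.05. Ryr1 lies lowest in every strategy, between -2.69 and -1.79, and Atp2b4 is the gene with positive values throughout.

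The ryanodine receptors were not lowered alike. Ryr1 had the largest change of the 10 genes in all 9 comparisons, Ryr3 was moderately lower, and Ryr2 differed little. The bases upstream of the start sites of Ryr1 and Ryr2, the receptors that differed most and least, and of Itpr2, the IP3 receptor that differed least, are shown so that the differing and the little changed genes can be set side by side. RefSeq's promoter table on GRCm38.p6 had entries for 7 of the 10 genes, and each window below is the 250 bases before a start, 5′ to 3′ on the strand of the gene. Capitals mark matches to the GC box GGGCGG on either strand. The 3 genes lie on the minus strand, at chr7:29125152-29125401 for Ryr1, chr13:12106946-12107195 for Ryr2 and chr6:146502224-146502473 for Itpr2.
Ryr1: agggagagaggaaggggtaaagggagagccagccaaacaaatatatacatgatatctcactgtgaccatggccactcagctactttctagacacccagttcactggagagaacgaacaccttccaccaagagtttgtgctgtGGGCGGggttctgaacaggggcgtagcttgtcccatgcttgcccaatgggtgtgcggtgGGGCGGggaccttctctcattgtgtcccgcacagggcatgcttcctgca
Ryr2: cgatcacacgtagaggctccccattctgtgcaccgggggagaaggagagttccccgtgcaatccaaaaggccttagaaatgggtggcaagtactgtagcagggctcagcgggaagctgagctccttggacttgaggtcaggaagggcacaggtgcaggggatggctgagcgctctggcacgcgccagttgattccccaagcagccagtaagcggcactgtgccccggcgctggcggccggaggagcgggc
Itpr2: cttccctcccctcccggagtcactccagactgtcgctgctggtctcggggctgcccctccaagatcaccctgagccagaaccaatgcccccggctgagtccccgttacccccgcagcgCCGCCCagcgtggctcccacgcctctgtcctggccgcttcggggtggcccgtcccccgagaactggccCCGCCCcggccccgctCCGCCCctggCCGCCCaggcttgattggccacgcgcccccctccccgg
The Ryr1 window held 2 GC boxes and 6 CpG dinucleotides, the Ryr2 window no GC box and 14 CpG, and the Itpr2 window 4 GC boxes and 22 CpG. Of the 32851 promoter windows in the table, 32.7% held a GC box, and the median window held 6 CpG. TATAAA (12.4% of windows), the CRE TGACGTCA (1.55%), the E-box CACGTG (6.02%) and the EGR motif GCGTGGGCG (0.536%), each searched on both strands, matched none of these 3 windows. Of the other genes with entries, Atp2b1, called lower in all 9 comparisons, had windows with 43 and 41 CpG and 4 and 3 GC boxes. Those of Atp2b2, also called lower in all 9, had 16, 6 and 6 CpG and 1, 0 and 1 GC boxes. The Itpr3 window had 25 CpG and 1 GC box, and the Atp2b4 window 2 CpG and no GC box. These matches describe the letters only, and their relation to the changes was not tested.

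Ryr1 (ENSMUSG00000030592, GRCm38 chromosome 7, 29003344 to 29125179, minus strand) encodes ryanodine receptor type 1. Untreated zQ175 mice of 2[4]6 had 18.7 CPM at the lowest, 23.0 at the median and 24.6 at the highest, against 66.3, 91.1 and 106.7 CPM in untreated wild type. In 6[4]10 the lowest, median and highest were 10.4, 18.3 and 19.3 CPM in zQ175, against 97.8, 109.7 and 128.2 CPM in wild type. The 2+6[8]10 animals had 12.1, 15.9 and 17.8 CPM in zQ175, against 81.3, 92.9 and 98.98 CPM in wild type. The groups did not overlap in any strategy. The log2 fold change was -1.97 ± 0.07 (SE, adjusted p = 1.38e-26), -2.68 ± 0.09 (adjusted p = 5.95e-27) and -2.55 ± 0.10 (adjusted p = 1.34e-24), by edgeR's quasi-likelihood test. With NTC it was -1.89, -2.48 and -2.69, and with HTT-10150 -1.79, -2.38 and -2.44. Over all treatments, the 72 zQ175 animals held 10.4 to 29.9 CPM of Ryr1 and the 71 wild-type animals 66.3 to 140.0 CPM, so that all 72 lay below the lowest wild-type animal. The lowest zQ175 value, 10.4 CPM, came from untreated male 2 of 6[4]10, whose nearest group mate had 16.9 CPM. The antisense gene Gm26604 overlaps Ryr1 and averaged 3.7 counts per library.

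**Figure D2:**
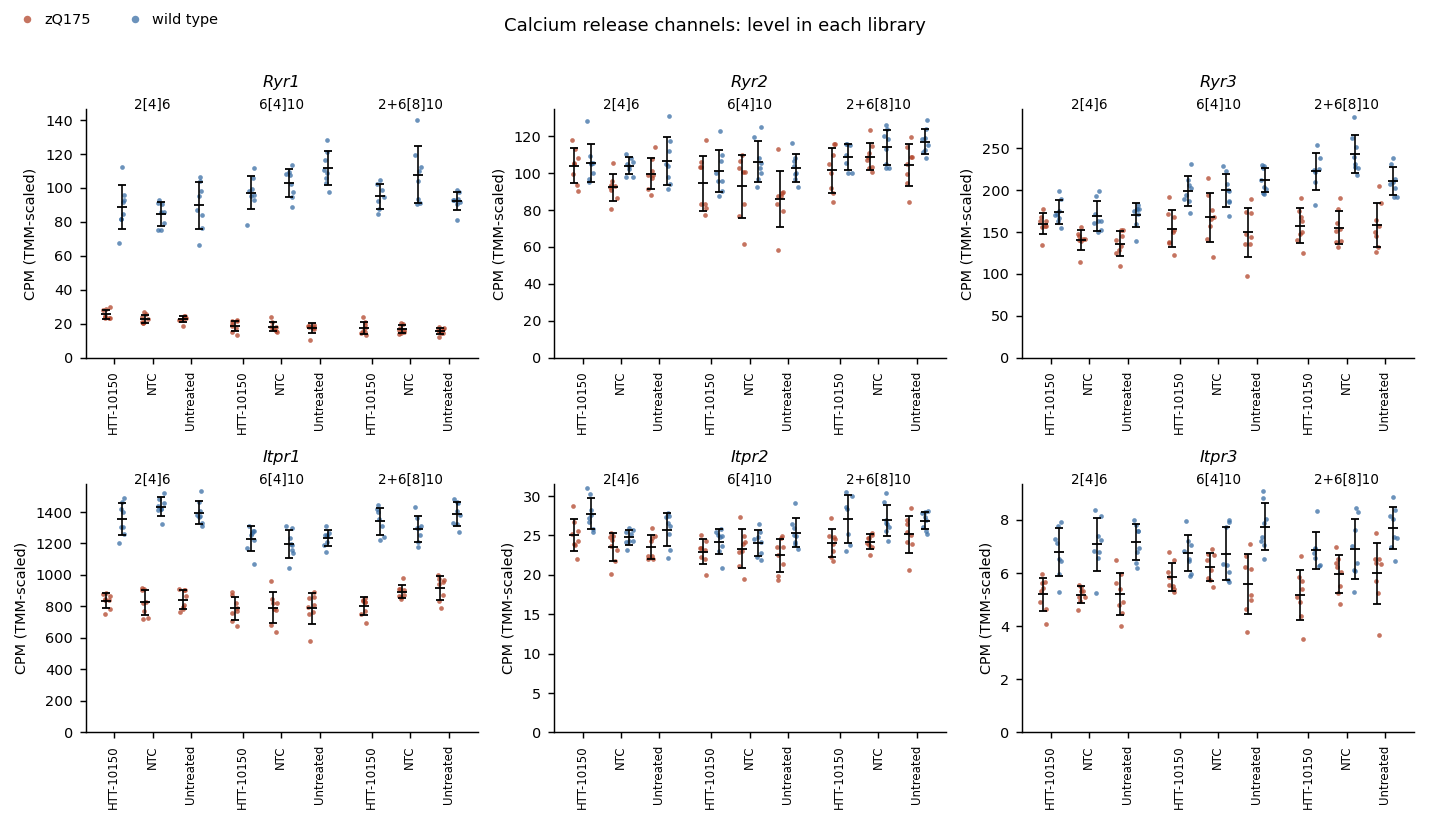
Level of each ryanodine and IP3 receptor (TMM-scaled CPM, axis from 0) in every animal, by strategy and treatment, with zQ175 left of wild type; bars give each group mean ± SD (n = 8, and 7 for wild type with HTT-10150 in 2+6[8]10). For Ryr1 and Itpr1 the zQ175 points lie below the wild-type points in each of the 9 pairs of groups, whereas for Ryr2 and Itpr2 the groups overlap in each.

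Ryr3 (ENSMUSG00000057378, chromosome 2, 112631355 to 113217096) encodes the ryanodine receptor best known from brain. It averaged 136 ± 14.8 CPM in zQ175 and 170 ± 14.1 CPM in wild type in untreated 2[4]6, 149.5 ± 28.9 and 212 ± 14.7 CPM in 6[4]10, and 158.4 ± 26.3 and 210.7 ± 16.6 CPM in 2+6[8]10 (SD, n = 8 each). The log2 fold changes were -0.32 ± 0.06, -0.50 ± 0.10 and -0.42 ± 0.09 (SE; edgeR adjusted p = 5.59e-05, 0.000101 and 0.000189). The untreated groups overlapped in 2[4]6 and 2+6[8]10 and not in 6[4]10. Ryr3 was called lower in 8 of the 9 comparisons, the exception being HTT-10150 in 2[4]6 (-0.12 ± 0.06, adjusted p = 0.142), which was called with each library's slopes on gene length and GC content as covariates (-0.21, adjusted p = 0.000471). The call with NTC in 6[4]10 (-0.25 ± 0.10, adjusted p = 0.0476) was lost without replicate 1 (-0.19, adjusted p = 0.236), 3 or 4 and without the 32 libraries that stand apart (-0.26, adjusted p = 0.0867). Ryr3 overlaps Aven on the opposite strand, which averaged 184.9 counts per library. Use of the strand in counting is not given in the sources used here, so reads of this overlap cannot be told apart.

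Ryr2 (ENSMUSG00000021313, chromosome 13, 11553102 to 12106945) encodes the ryanodine receptor of heart, which is also abundant in brain. It averaged 99.7 ± 8.28 CPM in zQ175 and 106.6 ± 13.2 CPM in wild type in untreated 2[4]6, 85.98 ± 15.04 and 103.0 ± 7.48 CPM in 6[4]10, and 104.3 ± 11.3 and 117.1 ± 6.77 CPM in 2+6[8]10 (SD, n = 8 each). Its groups overlapped in all 9 comparisons. Its log2 fold change ran from -0.26 to -0.02 and was called in 3 of them, NTC in 2[4]6 (-0.17, adjusted p = 0.0214) and untreated mice of 6[4]10 (-0.26, adjusted p = 0.0467) and of 2+6[8]10 (-0.17, adjusted p = 0.0223). Each of these calls was lost when 1 replicate number was left out, as with NTC in 2[4]6 without replicate 3 (-0.14, adjusted p = 0.136), in 6[4]10 without replicate 2 (-0.20, adjusted p = 0.174) and in 2+6[8]10 without replicate 1 (-0.16, adjusted p = 0.0996). With the length and GC slopes the value in untreated 6[4]10 was -0.14 (adjusted p = 0.256). Calls were gained with NTC in 6[4]10 without the libraries that stand apart (-0.31, adjusted p = 0.0267, against -0.19 with them) and with HTT-10150 in 2+6[8]10 without replicate 2 (-0.21, adjusted p = 0.0246, against -0.11 with it).

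Since levels of different genes can be compared only per length, TPM, which divides counts by transcript length, was used for the makeup of each family. Ryr1 averaged 3.36 TPM in zQ175 and 12.5 TPM in wild type in untreated 2[4]6. Its share of the summed TPM of the 3 ryanodine receptors was 5.56% ± 0.23, 3.95% ± 0.62 and 3.696% ± 0.34 in untreated zQ175 of 2[4]6, 6[4]10 and 2+6[8]10, against 15.9% ± 1.71, 15.99% ± 1.45 and 14.4% ± 0.92 in wild type (SD, n = 8 each). On the scale of CPM per kb of gene length the shares were 8.94%, 6.81% and 5.71% in zQ175, against 24.4%, 25.7% and 21.8% in wild type, so the share itself depends on how length is counted. The shares of the families were not tested. Ryr3 held most of the rest in both genotypes, with 43.6 TPM in zQ175 and 52.3 TPM in wild type of 2[4]6.

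Among the IP3 receptors, Itpr1 was lower in every comparison, Itpr3 in most, and Itpr2 by little. Itpr1 (ENSMUSG00000030102, chromosome 6, 108213096 to 108551109) encodes IP3 receptor type 1, the main neuronal form. In untreated 2[4]6 its lowest, median and highest levels were 762, 838 and 908 CPM in zQ175, against 1312, 1377 and 1532 CPM in wild type. In 6[4]10 they were 578, 804 and 893 CPM in zQ175, against 1148, 1250 and 1308 CPM in wild type. The values of 2+6[8]10 were 793, 949 and 1003 CPM in zQ175, against 1275, 1392 and 1481 CPM in wild type. No pair of groups overlapped, in these 3 comparisons or in the 6 with siRNA. The log2 fold change was -0.73 ± 0.05, -0.64 ± 0.07 and -0.60 ± 0.05 without treatment (SE; edgeR adjusted p = 5.57e-18, 7.71e-11 and 1.93e-15) and ran from -0.80 to -0.53 over the 9 comparisons, or 1.45- to 1.74-fold lower. All 72 zQ175 animals lay below the lowest wild-type animal, as they did for Ryr1.

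Itpr3 (ENSMUSG00000042644, chromosome 17, 27057304 to 27122223), the IP3 receptor best known from secretory epithelia, had the lowest TPM of the 10 genes in every untreated group. It averaged 5.21 ± 0.80 CPM in zQ175 and 7.16 ± 0.67 CPM in wild type in untreated 2[4]6, 5.59 ± 1.12 and 7.74 ± 0.88 CPM in 6[4]10, and 5.99 ± 1.15 and 7.69 ± 0.79 CPM in 2+6[8]10 (SD, n = 8 each). It was called lower in 6 of 9 comparisons, with log2 fold changes of -0.45 ± 0.08, -0.46 ± 0.09 and -0.36 ± 0.11 without treatment (SE; edgeR adjusted p = 1.30e-05, 8.89e-05 and 0.00672), although the groups overlapped in all 9. The call in untreated 2+6[8]10 was lost without replicate 4 (-0.30, adjusted p = 0.0589) and without the libraries that stand apart (-0.32, adjusted p = 0.0657). It was not called with NTC (-0.10, adjusted p = 0.452) or HTT-10150 (-0.20, adjusted p = 0.0899) in 6[4]10 or with NTC in 2+6[8]10 (-0.22, adjusted p = 0.0949), but the second was called without replicate 1 (-0.27, adjusted p = 0.0379) and the third without replicate 3 (-0.32, adjusted p = 0.0297).

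Itpr2 (ENSMUSG00000030287, chromosome 6, 146108299 to 146502223), the IP3 receptor best known from astrocytes and heart, averaged 23.6 ± 1.56 CPM in zQ175 and 25.7 ± 2.09 CPM in wild type in untreated 2[4]6 (SD, n = 8 each). Its log2 fold change ran from -0.18 to -0.04 over the 9 comparisons and was called in 4, and the groups overlapped in all 9. Each of the 4 calls was lost without replicate 4, at log2 fold changes of -0.15 to -0.10 and adjusted p from 0.0561 to 0.246. The call in untreated 6[4]10 (-0.17) was lost with the length and GC slopes (-0.07, adjusted p = 0.383) and without the libraries that stand apart (-0.08, adjusted p = 0.303). In untreated 2[4]6, not called as reported (-0.13, adjusted p = 0.0526), it was called without replicate 3 (-0.19, adjusted p = 0.00774). Of 9 astrocyte markers, 7, 6 and 8 were called lower in untreated zQ175 of 2[4]6, 6[4]10 and 2+6[8]10, and their part in the Itpr2 values was not tested. Itpr1 held 97.0%, 96.9% and 97.0% of the summed TPM of the 3 IP3 receptors in untreated zQ175 and 97.9%, 97.6% and 97.8% in wild type.

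Atp2a2 (ENSMUSG00000029467, chromosome 5, 122453513 to 122502225), which encodes SERCA2, was lower in zQ175 in all 9 comparisons by a modest and even amount. In untreated 2[4]6 its lowest, median and highest levels were 719, 786 and 837 CPM in zQ175, against 908, 972 and 1056 CPM in wild type. In 6[4]10 they were 645, 726 and 867 CPM in zQ175, against 790, 889 and 963 CPM in wild type. In 2+6[8]10 they were 681.5, 744.5 and 800.2 CPM in zQ175, against 837, 935 and 989.7 CPM in wild type. The groups overlapped in 6[4]10 and not in the other 2 strategies. The log2 fold changes were -0.33 ± 0.04, -0.26 ± 0.06 and -0.32 ± 0.03 (SE; edgeR adjusted p = 8.51e-09, 0.000241 and 1.77e-10), and over the 9 comparisons Atp2a2 was 1.18- to 1.30-fold lower. Of all 72 zQ175 animals, 40 lay below the lowest wild-type animal. Atp2a2 held 98.8% to 98.9% of the summed TPM of the SERCA genes in untreated zQ175 and 98.9% to 99.1% in wild type.

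Of the plasma membrane pumps, Atp2b1 and Atp2b2 were lower in zQ175 and Atp2b4 was not. Atp2b1 (ENSMUSG00000019943, chromosome 10, 98914406 to 99026143) encodes PMCA1, the widely expressed form. In untreated 2[4]6 its lowest, median and highest levels were 828, 923 and 1042 CPM in zQ175, against 1292, 1423 and 1563 CPM in wild type. In 6[4]10 they were 772, 809 and 884 CPM in zQ175, against 1056, 1299 and 1371 CPM in wild type. For 2+6[8]10 they were 823, 929 and 981 CPM in zQ175, against 1359, 1431 and 1551 CPM in wild type. Groups did not overlap in any of the 9 comparisons, and all 72 zQ175 animals lay below the lowest wild-type animal. The log2 fold change was -0.63 ± 0.06, -0.63 ± 0.05 and -0.66 ± 0.04 (SE; edgeR adjusted p = 4.13e-13, 7.81e-14 and 2.44e-20), and 1.54- to 1.64-fold lower over the 9 comparisons.

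Atp2b2 (ENSMUSG00000030302, chromosome 6, 113743831 to 114042613) encodes PMCA2, the fast pump of neurons and hair cells. It averaged 586 ± 28.2 CPM in zQ175 and 818 ± 49.5 CPM in wild type in untreated 2[4]6, 572 ± 47.2 and 750.0 ± 31.9 CPM in 6[4]10, and 586 ± 35.7 and 762 ± 39.3 CPM in 2+6[8]10 (SD, n = 8 each). Its log2 fold changes were -0.48 ± 0.04, -0.39 ± 0.05 and -0.39 ± 0.04 (SE; edgeR adjusted p = 1.51e-12, 3.21e-08 and 4.56e-12). The groups did not overlap in any of the 9 comparisons, over which it was 1.26- to 1.39-fold lower, and 71 of 72 zQ175 animals lay below the lowest wild-type animal.

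**Figure D3:**
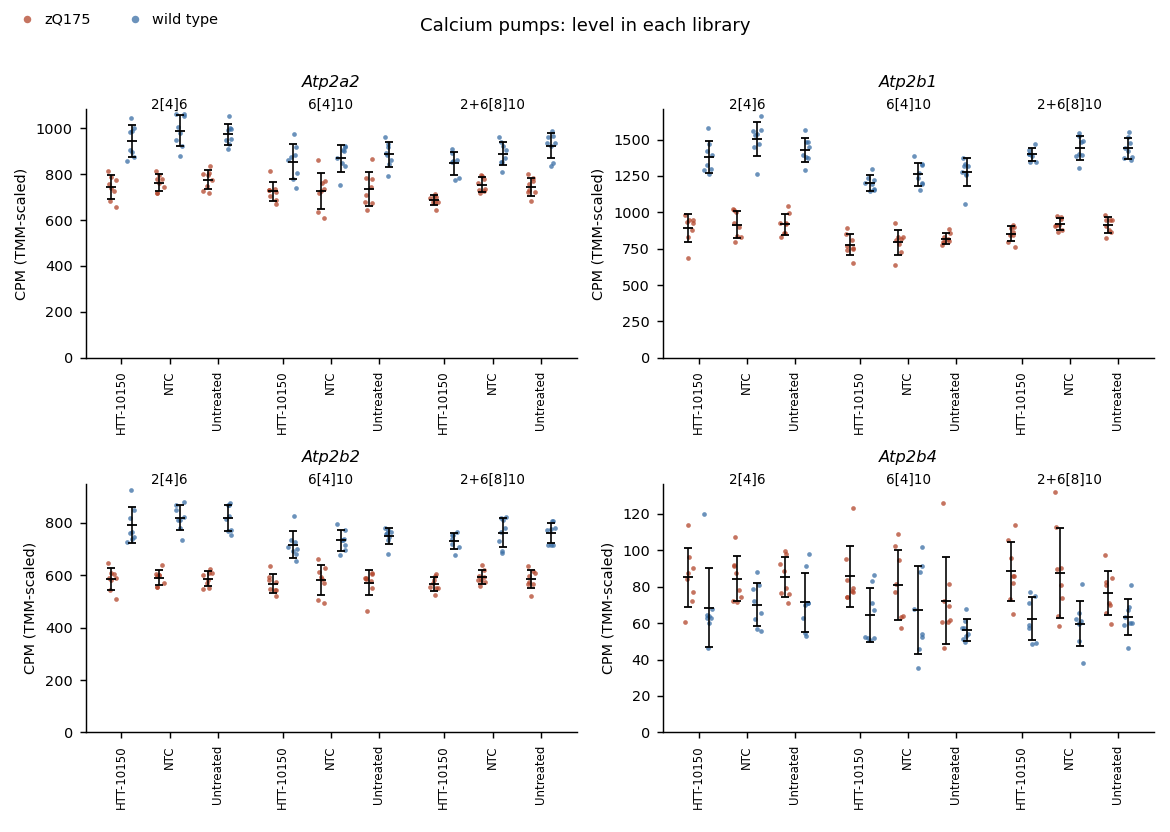
Level of each calcium pump (TMM-scaled CPM, axis from 0) in every animal, by strategy and treatment, with zQ175 left of wild type; bars give each group mean ± SD (n = 8, and 7 for wild type with HTT-10150 in 2+6[8]10). The zQ175 points of Atp2b1 and Atp2b2 lie below the wild-type points in each pair of groups, and those of Atp2b4 overlap them and spread more widely.

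Atp2b4 (ENSMUSG00000026463, chromosome 1, 133699457 to 133801041) encodes PMCA4. In untreated 2[4]6 its lowest, median and highest levels were 71.04, 83.9 and 99.8 CPM in zQ175, against 52.9, 70.6 and 98.0 CPM in wild type. In 6[4]10 they were 46.6, 65.6 and 125.9 CPM in zQ175, against 49.7, 55.5 and 67.9 CPM in wild type. In 2+6[8]10 they were 59.6, 75.96 and 97.6 CPM in zQ175, against 46.4, 61.5 and 80.98 CPM in wild type. The groups overlapped in all 9 comparisons, and the median was higher in zQ175 in these 3. The untreated log2 fold changes of 0.26 ± 0.14, 0.37 ± 0.18 and 0.28 ± 0.15 were not called (SE; edgeR adjusted p = 0.158, 0.105 and 0.152). All 9 values were positive, and 2 of them, both in 2+6[8]10, were called: NTC (0.55 ± 0.15, adjusted p = 0.00232) and HTT-10150 (0.50 ± 0.15, adjusted p = 0.0102). The HTT-10150 call was lost without replicate 2 (0.42, adjusted p = 0.0927) and without replicate 4 (0.46, adjusted p = 0.0627). Calls were gained in untreated 2[4]6 without replicate 1 (0.41, adjusted p = 0.0201), with NTC in 2[4]6 without replicate 4 (0.45, adjusted p = 0.0298), with HTT-10150 in 2[4]6 without replicate 1 (0.49, adjusted p = 0.00570) and with HTT-10150 in 6[4]10 under 4 alternatives, at 0.41 to 0.57. The median coefficient of variation of Atp2b4 across the animals of a group was 19.2%, against 5.87% to 11.9% for the other 9 genes.

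Atp2b4 moved with markers of cortical projection neurons from animal to animal. This relation was looked at after the values had been seen. The summed level of 8 such markers ran from 32.6 to 465 CPM in zQ175 and from 29.8 to 438 CPM in wild type, and each of the 8 was above 0 in every library. Of the 8, 1, 1 and 1 were called higher and 0, 0 and 1 lower in untreated zQ175 of 2[4]6, 6[4]10 and 2+6[8]10. On log2 scales, Pearson's r of Atp2b4 with that sum was 0.78 in zQ175 and 0.85 in wild type of 2[4]6, 0.65 and 0.87 in 6[4]10, and 0.79 and 0.79 in 2+6[8]10 (n = 24 animals each, 23 for wild type of 2+6[8]10). Spearman's rho ran from 0.59 to 0.83. The two-sided permutation p of r, adjusted over 60 relations of 10 genes, ran from 0.00015 to 0.00497, and that of rho reached 0.0297 at most. The smallest value 100000 permutations can give is 1e-05 before adjustment. The permutations took the animals of a set as independent, across treatments, sexes and the numbers in the library names. Many animals that share such a number deviated together, so these p-values may be too small. Without the 2 animals farthest from the median sum, r ran from 0.42 to 0.82. For Ryr2, r with that sum had an adjusted permutation p under 0.05 in 2 of 6 sets of animals, wild type of 2[4]6 (0.61) and 6[4]10 (0.70). Itpr3 had such an r in 1 of 6, wild type of 6[4]10, with the opposite sign (-0.55). Each of the other 7 genes had it in 0 of 6. The relation was computed for the 10 genes alone, so the share of all genes with such an r is not known. The highest sum, 465 CPM, was that of untreated zQ175 male 4 of 6[4]10, which also had the highest Atp2b4 of its group, 125.9 CPM, and the skeletal muscle sum of 20.7 CPM.

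With the log2 sum of the cortical markers as a covariate, a fit added after seeing the data, Atp2b4 was called higher in zQ175 in 8 of 9 comparisons, against 2 of 9 without it. Its log2 fold change was then 0.18 to 0.40, against 0.26 to 0.55 without the covariate. The uncalled comparison was untreated 2+6[8]10 (0.18, edgeR adjusted p = 0.112). With the covariate, 5202 of 15716, 5837 of 15757 and 5540 of 15506 genes were called in untreated mice of 2[4]6, 6[4]10 and 2+6[8]10. With NTC 5472, 5440 and 6436 of all genes were called, and with HTT-10150 5339, 5602 and 5559. No other gene of the 10 gained or lost a call in the 9 genotype comparisons with this covariate.

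**Figure D4:**
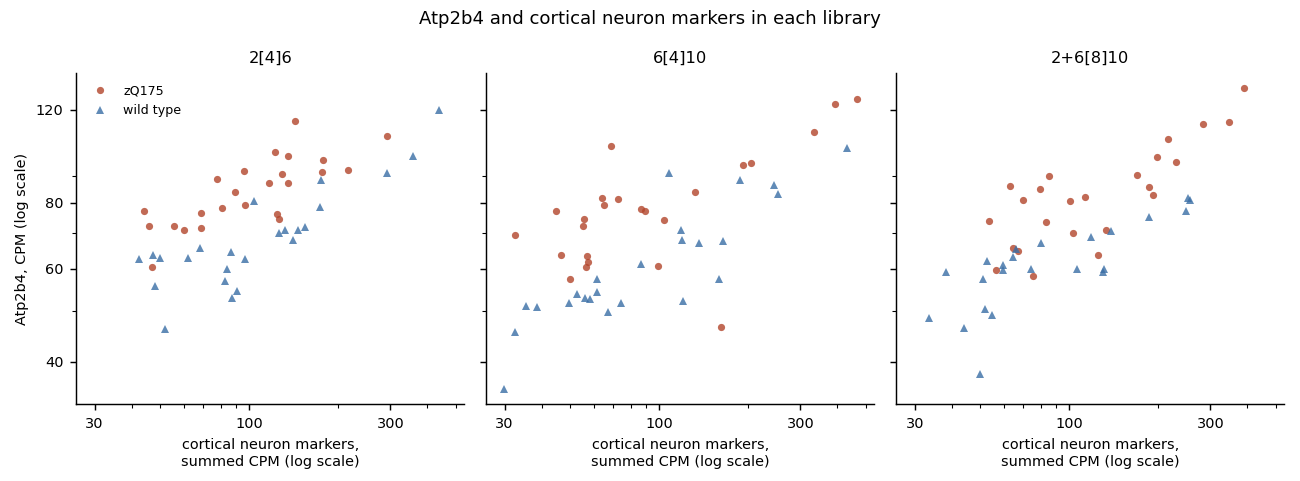
Level of Atp2b4 (CPM, log axis) against the summed level of 8 cortical projection neuron markers (CPM, log axis), 1 point per animal, by strategy and genotype. Points with a higher sum have more Atp2b4 in both genotypes, and the highest zQ175 sum, 465 CPM, belongs to an animal with 125.9 CPM of Atp2b4.

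The plasma membrane pumps were also described by their shares of TPM. In untreated 2[4]6, 6[4]10 and 2+6[8]10, Atp2b1 held 53.3%, 51.9% and 53.2% of the summed TPM of the 4 Atp2b genes in zQ175, against 57.9%, 57.7% and 59.9% in wild type. The share of Atp2b4 was 4.68%, 4.24% and 4.22% in zQ175, against 2.74%, 2.42% and 2.53% in wild type. The share of Atp2b3, which encodes PMCA3 and is not among the 10 genes, was 7.38%, 7.09% and 7.92% in zQ175, against 5.38%, 5.13% and 5.12% in wild type.

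By TPM, the order of the 10 genes in untreated wild type of 2[4]6 and 2+6[8]10 was Atp2a2, Atp2b1, Itpr1, Atp2b2, Ryr3, Atp2b4, Ryr2, Ryr1, Itpr2 and Itpr3. Atp2a2 averaged 399 TPM in zQ175 and 471 TPM in wild type of 2[4]6, and Itpr3 1.32 and 1.70 TPM. There the neighbours whose animals overlapped were Atp2a2 and Atp2b1, Atp2b4 and Ryr2, and Ryr2 and Ryr1. In wild type of 6[4]10 Ryr1 stood above Ryr2, and it overlapped both Atp2b4 and Ryr2. In zQ175 Ryr1 came below Itpr2 in all 3 strategies, with animals that overlapped those of Itpr3 in the strategies collected at 10 months, where those of Atp2b4 and Ryr2 overlapped too. Itpr1 and Atp2b2 overlapped in zQ175 of all 3 strategies, and in 6[4]10 Atp2b2 stood above Itpr1. By CPM per kb, Ryr1 stood above Ryr2 in wild type of all 3 strategies and above Atp2b4 in that of 6[4]10, and Atp2b2 stood above Itpr1 in zQ175 of 2[4]6 too.

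The change in Ryr1 was larger in the strategies collected at 10 months than in the one collected at 6 months. The zQ175 effect in untreated mice of 6[4]10 minus that of 2[4]6 was -0.72 ± 0.12 on the log2 scale (SE, edgeR adjusted p = 0.000552), and Ryr1 was the 1 gene of the 10 called in that comparison, where 0.835% of all genes were. The effect in 2+6[8]10 minus that in 2[4]6 was -0.57 ± 0.12 (adjusted p = 0.0181), again the 1 call among the 10 genes, where 0.0675% of all genes were called. This call was lost without replicate 1 (-0.49, adjusted p = 0.327), 3 (-0.60, adjusted p = 0.131) or 4 (-0.59, adjusted p = 0.0895) and with no term for sex (-0.56, adjusted p = 0.0541). Both comparisons share the mice of 2[4]6. Between the 2 strategies collected at 10 months, 0 of the 10 genes were called by edgeR or DESeq2, where 0.0123% of all genes were called. An unadjusted p under 0.05 was reached by 0 of the 10 and by 5.41% of all genes. Ryr1 there was 0.14 ± 0.12.

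Levels in untreated wild type also differed between strategies. In 6[4]10 against 2[4]6, 6 of the 10 genes were called, where 16.4% of all genes were. Ryr1 (111.5 ± 10.0 against 89.8 ± 13.9 CPM, log2 fold change 0.29) and Ryr3 (212 ± 14.7 against 170 ± 14.1 CPM, 0.28) were higher in 6[4]10. Itpr1 (-0.20), Atp2a2 (-0.15), Atp2b1 (-0.23) and Atp2b2 (-0.14) were lower in 6[4]10. Without replicate 1 or 3 this count was 2, and without replicate 4 it was 1. In 2+6[8]10 against 2[4]6, Ryr3 was the 1 gene called (0.28 ± 0.09, edgeR adjusted p = 0.0417), where 7.57% of all genes were, and it was not called without replicate 3 (0.24, adjusted p = 0.276) or 4 (0.24, adjusted p = 0.305) or with length and GC slopes (0.15, adjusted p = 0.264). In 2+6[8]10 against 6[4]10, which were both collected at 10 months, 2 genes were called, Ryr1 (-0.30 ± 0.09, adjusted p = 0.0156) and Atp2b1 (0.20 ± 0.05, adjusted p = 0.0111), where 9.09% of all genes were. The call of Ryr1 was lost without replicate 1 (-0.25, adjusted p = 0.106) and that of Atp2b1 without replicate 3 (0.19, adjusted p = 0.0715), and both were lost without replicate 2 (-0.31 and 0.20). With the length and GC slopes Atp2b1 was at 0.11 (adjusted p = 0.330), and without the libraries that stand apart Ryr1 was at -0.22 (adjusted p = 0.0944). Ryr1 was not called in 2+6[8]10 against 2[4]6 (92.4 ± 5.36 against 89.8 ± 13.9 CPM, -0.02, adjusted p = 0.935). The 3 comparisons share their animals in pairs.

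Few of these genes were called after HTT-10150. In zQ175, 0 of the 10 were called against NTC in 2[4]6 and 0 in 6[4]10 by edgeR or by DESeq2, where 0% and 0% of all genes were called. In wild type, 0 were called in 2[4]6, 6[4]10 and 2+6[8]10 by either tool, where 0.00636%, 0% and 0.0129% of all genes were. At an unadjusted p under 0.05 there were 3 in zQ175 and 2 in wild type of 2[4]6, where 5.22% and 5.93% of all genes were. There were 0 in zQ175 and wild type of 6[4]10 and in wild type of 2+6[8]10, where 3.56%, 3.28% and 5.24% of all genes were. The 3 in zQ175 of 2[4]6 were the ryanodine receptors: Ryr1 averaged 25.7 ± 2.68 CPM with HTT-10150 and 22.8 ± 2.598 CPM with NTC (0.17 ± 0.08, edgeR adjusted p = 0.925), Ryr2 104.1 ± 9.42 and 92.3 ± 7.31 CPM (0.17 ± 0.06, adjusted p = 0.806), and Ryr3 159.9 ± 12.5 and 140.7 ± 11.8 CPM (0.18 ± 0.06, adjusted p = 0.797). The groups overlapped for all 3.

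In zQ175 of 2+6[8]10, the strategy with 2 treatments, 2 of the 10 genes were called lower with HTT-10150 than with NTC, where 3.16% of all genes were called. Atp2a2 had 646, 688 and 713 CPM at the lowest, median and highest with HTT-10150, against 717, 747 and 798 CPM with NTC, and the groups did not overlap (-0.13 ± 0.03, edgeR adjusted p = 0.0216). Itpr1 averaged 801 ± 56.7 CPM with HTT-10150 and 894 ± 42.6 CPM with NTC (SD, n = 8 each), and the groups overlapped (-0.16 ± 0.05, adjusted p = 0.0448). Atp2b1 averaged 852.5 ± 52.6 and 921 ± 39.7 CPM (-0.11 ± 0.04, adjusted p = 0.0848), and was called by DESeq2 and with a block for library-name numbers (-0.12, edgeR adjusted p = 0.0484). All 3 values lie away from wild type, whose NTC animals averaged 889.7 ± 50.96 CPM of Atp2a2, 1293 ± 80.9 CPM of Itpr1 and 1442 ± 81.1 CPM of Atp2b1. Neither call was kept without the libraries that stand apart (Atp2a2 -0.13, adjusted p = 0.135; Itpr1 -0.17, adjusted p = 0.145), without replicate 1, 3 or 4, or with the length and GC slopes (Atp2a2 -0.07, adjusted p = 0.433; Itpr1 -0.04, adjusted p = 0.801).

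The HTT-10150 effect in zQ175 minus that in wild type was called for 0 of the 10 genes in each strategy by edgeR and by DESeq2, where 0%, 0% and 0.529% of all genes were called. At an unadjusted p under 0.05 there were 0, 0 and 1, where 2.53%, 4.27% and 12.2% of all genes were under that p. The 1 was Itpr1 in 2+6[8]10 (-0.21 ± 0.07, edgeR adjusted p = 0.114). NTC against untreated mice of the same genotype, which share the NTC animals with the comparisons above, gave 0 calls among the 10 genes in all 6 comparisons by either tool, where 0%, 0% and 0% of all genes were called in zQ175 and 0%, 0% and 0.181% in wild type. At an unadjusted p under 0.05 there were 0, 0 and 0 in zQ175, where 4.99%, 7.41% and 3.05% of all genes were. In wild type there were 0, 1 and 3, where 2.01%, 2.5% and 11.4% of all genes were. The 3, in 2+6[8]10, were Ryr1 (0.21), Ryr3 (0.20) and Itpr1 (-0.11), with edgeR adjusted p of 0.295, 0.358 and 0.347.

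**Figure D5:**
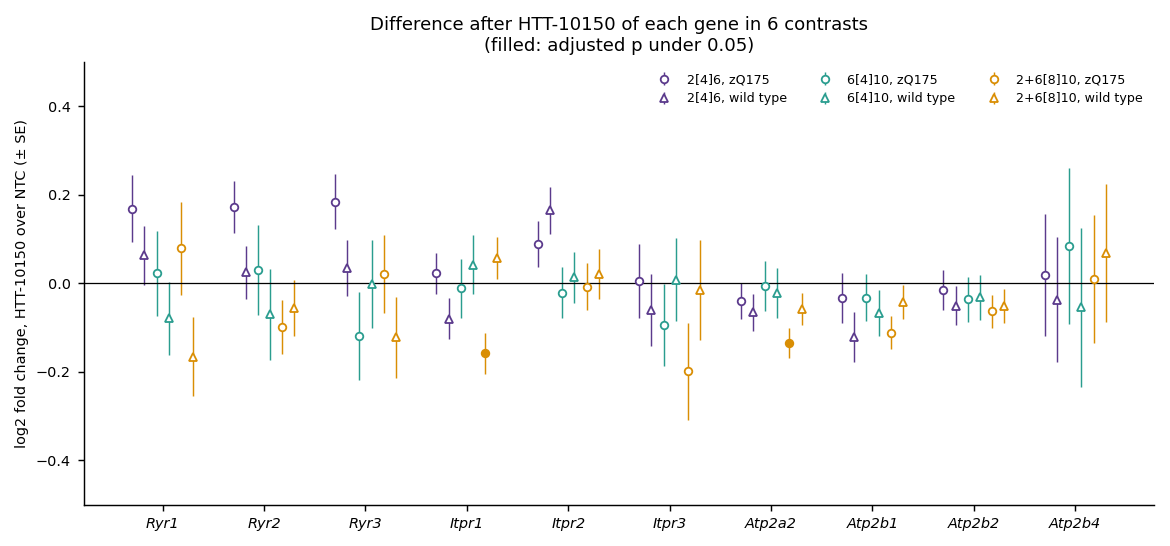
Log2 fold change of each gene with HTT-10150 over NTC (vertical axis) with its SE, by strategy (color), with zQ175 (circles) left of wild type (triangles); filled points passed an adjusted p under 0.05. The values lie between -0.20 and 0.18, and the 2 filled points are Atp2a2 and Itpr1 in zQ175 of 2+6[8]10.

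The genes around the channels and pumps were counted in the same untreated comparisons, in the order 2[4]6, 6[4]10 and 2+6[8]10. Of all genes, 17.2%, 17% and 18.3% were called lower there and 15.3%, 19.2% and 17.1% higher. The lists below were also chosen with earlier results of these data known. Of 27 partners and regulators of the release channels tested, 11, 9 and 12 were called lower in zQ175 and 1, 2 and 3 higher, with median log2 fold changes of -0.11, -0.07 and -0.09 beside medians of 0.0035, 0.011 and 0.0031 over all genes. Homer1, whose protein ties group I metabotropic glutamate receptors to IP3 and ryanodine receptors, had log2 fold changes of -0.71, -0.71 and -0.74, the quantity given for each gene below. Jph4, a junctophilin that holds the reticulum near the plasma membrane, was at -0.35, -0.24 and -0.21. Fkbp1b, whose product calstabin 2 binds ryanodine receptors, was higher at 0.33, 0.46 and 0.49. These 3 genes were called in all 3 comparisons.

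Of 26 genes of IP3 production and removal, 9, 9 and 10 were called lower and 2, 4 and 2 higher, with medians of -0.11, -0.10 and -0.13. Those called lower in all 3 included the metabotropic glutamate receptor gene Grm5 (-0.42, -0.51 and -0.49), the phospholipase C gene Plcb1 (-0.52, -0.48 and -0.49) and the IP3 kinase gene Itpka (-0.68, -0.44 and -0.46). Plcb1 was also the 1 gene of this list called with HTT-10150 against NTC in zQ175 of 2+6[8]10 (-0.14 ± 0.04, edgeR adjusted p = 0.0458). Of 8 sodium calcium exchangers, 4, 4 and 4 were called lower and 0, 0 and 0 higher, with medians of -0.29, -0.24 and -0.25. They were Slc8a2 (-0.56, -0.39 and -0.42), Slc8a3 (-0.34, -0.38 and -0.39), Slc24a2 (-0.35, -0.46 and -0.40) and Slc24a4 (-0.38, -0.66 and -0.41).

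The remaining 4 lists held calls in both directions, and the shares of all genes called are those given above. Of 11 genes of mitochondrial calcium uptake, 3, 7 and 6 were called higher and 1, 0 and 1 lower, with medians of -0.01, 0.15 and 0.11. Mcu, the pore of the uniporter, was at 0.20, 0.28 and 0.24, its regulator Micu2 at 0.15, 0.24 and 0.17, and the outer membrane channel Vdac3 at 0.17, 0.19 and 0.16. Of 13 calcium binding proteins of the reticulum, 3, 2 and 4 were called lower and 0, 2 and 1 higher (medians -0.08, -0.01 and -0.05), with Rcn1 at -0.42, -0.65 and -0.65 and Casq2 at -0.31, -0.72 and -0.65. Of 6 genes of store-operated entry, 1, 0 and 0 were called lower and 0, 2 and 2 higher (medians -0.09, 0.09 and 0.08). Of 5 other calcium ATPases and their regulators tested, 0, 1 and 0 were called lower and 0, 1 and 1 higher (medians -0.05, 0.0012 and 0.04).

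Likeness of pattern was measured as Pearson's r of mean log2 CPM over the 18 groups, against 15431 genes, as a description of groups that differ mainly by genotype. Ryr1 was most like Rspo1 (0.995), Abhd11os (0.995) and Gpx6 (0.994), and Itpr1 most like Slmap (0.994), Socs7 (0.994) and Prkcb (0.992). Atp2b1 was most like Rgs7bp (0.997) and Rragd (0.997), Atp2b2 most like Zswim5 (0.998), Anks1b (0.996) and Cyfip2 (0.993), and Atp2a2 most like Scrn1 (0.988), Rab6b (0.985) and Socs5 (0.982). Ryr3 was most like Gm15813 (0.981), Cacna1e (0.979) and Lama3 (0.974). The values were lower for Itpr3, with Znfx1 (0.955), Nfatc1 (0.953) and Jade2 (0.946), for Ryr2, with Adra1a (0.944) and Myo9a (0.938), and for Itpr2, with Ank3 (0.928) and Mmp16 (0.911). Atp2b4 was most like Cnih3 (0.973), Ralyl (0.958) and Syn2 (0.957). Among the 10 genes themselves, Itpr1 and Atp2b1 had an r of 0.99, and r of Atp2b4 with the other 9 ran from -0.87 to -0.43.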

How the data were processed

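Polyadenylated RNA of the striatum was sequenced from 143 mice, 1 library per mouse, extracted with a Qiagen RNeasy kit per the labels' protocols. Per the submitters' processing notes, the authors used RSEM and the GRCm38 genome. The deposited count table gives expected counts. A second deposited table, named for FPKM, has columns that each sum to 1000000, so its values were taken as TPM, and they replaced the planned CPM per kb for comparing levels between genes, a choice made after seeing the data. RSEM version, aligner, annotation and strand setting were not given in the sources used here. The count table had 41135 entries. Of these, 7 that name constructs or a mutant Htt held 5.91e-06% of the counts and were left out. Expected counts were rounded to whole numbers, which 78.2% of nonzero values already were. No 2 libraries were identical.

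Levels are TMM-scaled CPM. Each strategy was fitted once over its 6 groups with a term for sex, with edgeR 4.0.16 in R 4.3.3 (filterByExpr, TMM, robust quasi-likelihood F test), over 15506 to 15757 genes. Differences between strategies came from 1 fit of all 143 libraries over 16295 genes. Calls were made at an adjusted p (Benjamini-Hochberg, over every gene of the fit) under 0.05. Each standard error is the size of the log2 fold change over the root of F. Each p-value sets a difference against the spread between these animals only. That spread was estimated over all groups of a fit, with information shared across genes. Symbols and positions came from GENCODE M21 on GRCm38. The genes named besides the 10 were, per list, up to 4 called in all 3 untreated comparisons with the largest mean change, or called with HTT-10150, and the 3 most like each of the 10 by r of log2(CPM + 0.5); some of these are not reported here. In 2[4]6 all 38 pairs of animals that share the number in the library name deviated together (lowest r 0.12). The labels do not give the meaning of that number. In 6[4]10 and 2+6[8]10 not every such pair did (lowest r -0.24 and -0.10). The median r of such pairs was 0.41, 0.45 and 0.31 in 2[4]6, 6[4]10 and 2+6[8]10. For other pairs of the same genotype it was 0.25, 0.26 and 0.21. The 10 genes and the lists were chosen with earlier results of these data known. Alternatives were DESeq2 1.42.0, RLE scaling, no filter, omission of the sex term, blocks for the replicate number within sex or the number in the library name, length and GC slopes, leaving out libraries that stand apart, the compared groups only, and leaving out each replicate number from all groups.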

Additional observations from a re-analysis of the deposited data

Results flagged for a closer look

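Among 180 sets of values (10 genes in 18 groups), 15 held an animal farther from its group mates than Dixon's 95% critical value allows. Chance gives about 1 in 20 such sets. Untreated zQ175 male 2 of 6[4]10 was the lowest of its group for 3 genes, with 10.4 CPM of Ryr1, 578 CPM of Itpr1 and 464 CPM of Atp2b2. Its slope of log2 CPM on gene length was -0.175, against -0.0291 to 0.0165 in its 7 group mates, and it is among the 32 libraries that stand apart; the part of that slope in these 3 values was not tested. Untreated wild-type female 1 of 6[4]10 was the lowest of its group for Atp2b1 (1056 CPM) and Atp2b2 (680 CPM). Wild-type male 1 given HTT-10150 in 2[4]6 was the highest of its group for Ryr2 (128 CPM) and Atp2b4 (119.97 CPM), and its cortical marker sum of 438 CPM was the highest in wild type. Atp2b4 was also highest in untreated zQ175 male 4 of 6[4]10 (126 CPM, cortical marker sum 465 CPM) and in zQ175 male 2 given HTT-10150 in 6[4]10 (123 CPM, cortical marker sum 394 CPM). The part of the cortical markers in these Atp2b4 values was not tested within a single animal.

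The other 6 sets each had an animal of its own. Ryr1 was lowest in untreated zQ175 female 4 of 2[4]6 (18.7 CPM) and in untreated wild-type male 3 of 2+6[8]10 (81.3 CPM), and Ryr3 in zQ175 male 3 given NTC in 2[4]6 (114.7 CPM). Itpr3 was highest in wild-type male 2 given HTT-10150 in 2+6[8]10 (8.33 CPM), Atp2a2 in zQ175 female 2 given HTT-10150 in 6[4]10 (814 CPM), and Atp2b2 in wild-type female 3 given HTT-10150 in 6[4]10 (828 CPM). The effect of zQ175 on Ryr1 differed between strategies by a test of the difference itself, at -0.72 for 6[4]10 minus 2[4]6 and -0.57 for 2+6[8]10 minus 2[4]6 on the log2 scale.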

How the results depend on the processing

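Of 4200 values of single genes under the alternatives, 4090 kept their side of the threshold, among them 250 uncalled values that changed sign. A further 80 lost the call, 30 gained it and 0 called values changed sign. Values not called as reported, which could not lose a call, are among the 4200. So are 300 values without replicate number 5, which 1 wild-type animal held, and these all kept their side. For HTT-10150 against NTC in zQ175 of 2+6[8]10, 2 of the 10 genes were called as reported. The count was 1 without the filter, 0 with length and GC slopes and 0 without the libraries that stand apart. It was 0 to 1 with replicate number 1, 2, 3 or 4 left out. The count for the zQ175 effect in 2+6[8]10 minus 2[4]6, 1 as reported, was 0 with no sex term and 0 to 1 with a replicate number left out. For untreated wild type, the count in 6[4]10 against 2[4]6, 6 as reported, was lower without each of replicate numbers 1, 2, 3 and 4, down to 1. The count in 2+6[8]10 against 2[4]6, 1 as reported, was 0 without the filter, 0 with the cortical marker covariate and 0 to 1 with a replicate number left out. The count in 2+6[8]10 against 6[4]10, 2 as reported, was 1 with the slopes and 0 to 2 with a replicate number left out. The cause of these changes was not tested. Animals with the same replicate number did not deviate together in every pair (lowest r -0.17, -0.24 and -0.10 in 2[4]6, 6[4]10 and 2+6[8]10). Their median r was 0.39, 0.27 and 0.23, against 0.21, 0.23 and 0.19 for pairs with other numbers. Of the libraries, 23 of 48, 19 of 48 and 18 of 47 correlated best with their own replicate number. The fits as reported had no term for this number. With the replicate block, the 24 counts of called genes in the fits per strategy stayed within 1.5 times those reported, and 3 values gained the call, among them Atp2b4 with HTT-10150 in 2[4]6 (0.33, edgeR adjusted p = 0.0497). A block for library-name numbers, run for the siRNA comparisons, changed no call in 2[4]6 or 6[4]10. It added the call of Atp2b1 with HTT-10150 against NTC in zQ175 of 2+6[8]10 (-0.12, edgeR adjusted p = 0.0484). Nearly every such number was held by animals of 1 genotype, so the number and genotype can hardly be told apart. The comparisons of zQ175 with wild type were not fitted with this block and take the animals as independent. Itpr3 had the lowest levels of the 10 genes, at about 4 to 9 CPM.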
